A study of Mus musculus with 4 samples.

Results

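The 4 adult globin genes of the mouse (Hba-a1, Hba-a2, Hbb-bs and Hbb-bt) and the erythroid regulators Klf1, Gata1, Gata2 and Epor were followed in bone marrow LSCs (leukemia stem cells) with and without CD37, a tetraspanin of the leukocyte surface. The list named 9 genes, of which Alas2 had no row in the table, so that 8 genes of 17104 are described. The genes were selected on the CD37 -/- against CD37 fl/fl log2 fold changes of these same libraries, in which the globins stood among the largest, and regulators of the red cell lineage were added. For that reason the difference is given for them as a description, and nothing is read from a test of them.

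Leukemia was made by infecting lineage-negative marrow cells of CD37 fl/fl mice that carry an inducible Cre with the MLL-AF9 oncogene, in a retrovirus that also encodes YFP, and by transplanting them. Tamoxifen, which switches Cre on and removes the floxed exons, gave the CD37 -/- cells, and corn oil gave the CD37 fl/fl cells, so the oncogene and the Cre were shared by both groups. Cells were taken from the bone marrow of male C57 mice 6 weeks after the secondary transplantation and sorted as YFP+, c-kit+ before poly(A) RNA-seq, with 2 libraries per group (n = 2). The hosts were sublethally irradiated, and normal marrow cells were given along with the leukemia cells, so host and helper cells were present in the marrow that was sorted. The labels did not give the age of the mice, the number of mice behind a library or whether replicates came from separate mice, so p-values measure only the spread between these samples. Cd37 itself had an FPKM (fragments per kilobase of gene, scaled by depth) of 56.6 and 46.8 in CD37 fl/fl LSCs and of 23.2 and 22.9 in CD37 -/- LSCs, a log2 fold change of -1.15 (SE 0.17). The kilobases of the deposited FPKM were those of the whole gene with its introns, in the GENCODE M21 annotation of GRCm38, and with them 99.0% of values corresponded to whole numbers of reads. The recovered depth was 15327359 and 17327699 reads for CD37 fl/fl replicates 1 and 2 and 17740456 and 22627486 reads for CD37 -/- replicates 1 and 2. Of the cell type's own genes, Hoxa9 was at an FPKM of 38.8 to 47.2, whereas Cd34 was near 0 with an FPKM of 0.0145 to 0.0411. Kit had 213 to 804 reads and an FPKM of 0.170 to 0.434, scaled over its 81807 bases with introns.

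Hemoglobin is built from alpha chains, encoded by the Hba genes, and beta chains, encoded by the Hbb genes, each holding a heme group. Red cell precursors switch from GATA2, a factor of stem, progenitor and mast cells, to GATA1, which together with KLF1 drives the globin genes, while the erythropoietin receptor EPOR keeps the precursors alive. Alas2 encodes the erythroid form of the first enzyme of heme synthesis. The 2 alpha genes lie on chromosome 11 on the plus strand, Hba-a1 at chr11:32283511-32284465 and Hba-a2 at chr11:32296489-32297298 (GRCm38). The 2 beta genes lie on chromosome 7 on the minus strand, Hbb-bs at chr7:103826534-103828096 and Hbb-bt at chr7:103812524-103813996. Klf1 is at chr8:84901928-84905291 (plus strand), Gata1 at chrX:7959260-7978071 (minus), Gata2 at chr6:88193891-88207032 (plus) and Epor at chr9:21958897-21963506 (minus).

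The copies within each globin pair are nearly the same, which bears on how reads can be divided between them. The coding sequences of Hba-a1 and Hba-a2 are 429 bases long and differ at 1 base (C381T, the Hba-a1 base first, counted from the first coding base), and those of Hbb-bs and Hbb-bt are 444 bases long and differ at 1 base (C417T, the Hbb-bs base first). The stretches of exon 3 that end at these bases are shown with the differing base in capitals, from GENCODE M21 transcripts, at chr11:32284284-32284343, chr11:32297101-32297160, chr7:103826692-103826751 and chr7:103812683-103812742.
Hba-a1: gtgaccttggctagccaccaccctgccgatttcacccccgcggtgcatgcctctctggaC
Hba-a2: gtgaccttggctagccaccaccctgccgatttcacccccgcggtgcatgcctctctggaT
Hbb-bs: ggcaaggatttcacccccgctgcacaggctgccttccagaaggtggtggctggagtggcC
Hbb-bt: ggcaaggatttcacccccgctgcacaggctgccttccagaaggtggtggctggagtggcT
Of all windows of 50 bases in the coding transcript of Hba-a1, 67.5% also occur in that of Hba-a2, and of those of Hba-a2, 86.9% occur in that of Hba-a1. For the beta pair the shares were 65.8% of Hbb-bs and 58.3% of Hbb-bt. No window of 50 bases was shared between Hba-a1 and Hbb-bs. The summed alpha and summed beta reads do not depend on how shared reads were divided between the copies. If shared reads were left out of the counting, the sums lack them as well.

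The sequence before the start sites was searched for 4 short motifs known from globin promoters, on both strands. The letters searched were CACCC, which KLF1 binds, those of the CCAAT box, ATATAA, which the basal machinery binds, and GATAAG, which GATA factors bind. The 250 bases before the RefSeq start of Hba-a2 are shown because they hold all 4 (GRCm38.p6, chr11:32296242-32296491, plus strand, motifs in capitals).
Hba-a2: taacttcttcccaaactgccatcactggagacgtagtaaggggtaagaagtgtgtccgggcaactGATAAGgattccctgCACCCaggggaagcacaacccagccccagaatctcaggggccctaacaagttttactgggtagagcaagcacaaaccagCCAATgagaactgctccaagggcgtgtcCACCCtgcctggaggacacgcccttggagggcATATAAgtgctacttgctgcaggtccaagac
A run of 247 of these bases recurs before Hba-a1. The 250 bases before both beta genes hold all 4 motifs as well, and the stretches of 30 bases with the CACCC nearest to each start are shown for comparison, from chr7:103827992-103828021 and chr7:103813986-103814015 on the minus strand.
Hbb-bs: ccaCACCCtggtaagggCCAATctgctcac
Hbb-bt: taaCACCCtggcATTGGCCAATctgctcag
In Hbb-bt the first 5 capitals of the second block are CCAAT read on the other strand, and the forward copy follows directly. Of 32851 RefSeq promoter windows, CACCC was in 52.0%, the CCAAT box in 33.8%, the letters ATATAA in 9.10% and those of GATAAG in 6.55%, and 46 windows (0.140%) hold all 4. Before Klf1 all of these but ATATAA were found, before Epor only the KLF1 and GATA motifs, and before Gata1 only the KLF1 motif. Of the 2 start sites of Gata2, 1 had none of the 4 and 1 had the KLF1 and CCAAT motifs. A match of letters is a description and not a measured binding site.

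Transcripts of all 4 globins were more abundant in each CD37 -/- library than in either CD37 fl/fl library, by 7.27 to 22.1 times in the ratio of group means. Each group was itself uneven, with 1 library far above the other. For Hbb-bt, the minor adult beta globin, the FPKM was 2.08 and 0.509 in CD37 fl/fl replicates 1 and 2 and 42.1 and 10.3 in CD37 -/- replicates 1 and 2. CD37 -/- replicate 1 was highest, CD37 fl/fl replicate 2 lowest, and the groups did not overlap. The log2 fold change on log2(FPKM + 0.1) was 4.18 (SE 1.01). For Hba-a1 the FPKM was 36.6 and 2.54 in CD37 fl/fl LSCs and 226 and 58.4 in CD37 -/- LSCs, a log2 fold change of 3.55 (SE 1.57). The higher CD37 fl/fl library thus came within a factor of 1.59 of the lower CD37 -/- library, the narrowest gap of the 4 genes on the deposited values. For Hba-a2 the FPKM was 3.62 and 0.285 in CD37 fl/fl LSCs and 80.0 and 6.49 in CD37 -/- LSCs, a log2 fold change of 4.26 (SE 1.79), and CD37 -/- replicate 1 stood 12.3 times above replicate 2. Hbb-bs, the major adult beta globin, had the largest log2 fold change of the 8 genes, 4.44 (SE 1.40), and had 441, 45, 6305 and 2392 recovered reads in the 4 libraries in the same order. In bulk RNA, more cells of a type and more RNA per cell cannot be told apart.

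**Figure D1:**
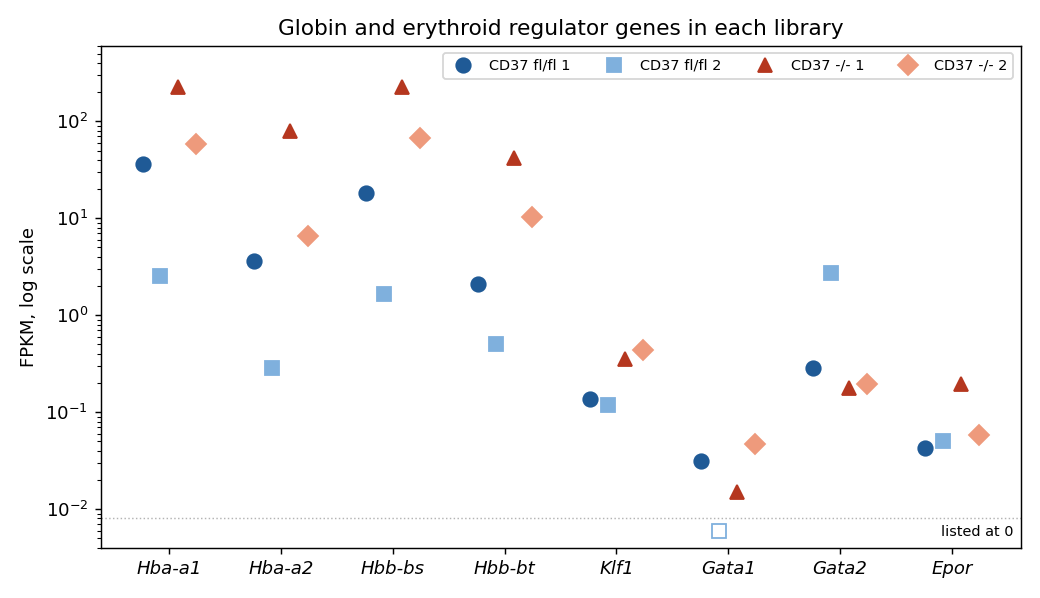
FPKM of each of the 8 genes (log scale) in the 2 CD37 fl/fl and 2 CD37 -/- libraries, 1 point per library, with the open square for Gata1 listed at 0. All 4 globins are highest in CD37 -/- replicate 1 and lowest in CD37 fl/fl replicate 2, whereas Gata2 is highest in CD37 fl/fl replicate 2.

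Klf1, the activator of adult beta globin transcription, was low in all libraries. Its FPKM was 0.136 and 0.120 in CD37 fl/fl (0.128 ± 0.0111, SD, n = 2) and 0.351 and 0.433 in CD37 -/- libraries (0.392 ± 0.0577, SD, n = 2), from 7, 7, 21 and 33 reads. The log2 fold change was 1.11 (SE 0.24), and the replicates of Klf1 lay within 1.13 and 1.23 times of each other, much closer than those of any globin. With 33 reads or fewer per library, that closeness is not read as a more precise measurement. Epor, the erythropoietin receptor, had an FPKM of 0.0425 and 0.0501 in CD37 fl/fl LSCs and 0.196 and 0.0575 in CD37 -/- LSCs, a log2 fold change of 0.56 (SE 0.35). With 3, 4, 16 and 6 reads, only CD37 -/- replicate 1 stood apart for Epor, and without it the log2 fold change was 0.11. Gata1, the master regulator of red cell genes, had an FPKM of 0.0312 and 0 in CD37 fl/fl LSCs and of 0.0150 and 0.0470 in CD37 -/- LSCs, from 9, 0, 5 and 20 reads. The groups overlapped for Gata1 (log2 fold change 0.18, SE 0.20), and the count of 0 allows up to 3 reads, an FPKM of 0.00920 in that library. A difference in Gata1 was not detectable at this depth.

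Gata2 went the other way. Its FPKM was 0.288 and 2.75 in CD37 fl/fl LSCs and 0.176 and 0.195 in CD37 -/- LSCs, from 58, 626, 41 and 58 reads. CD37 fl/fl replicate 2 was 9.55 times above replicate 1, while the CD37 -/- libraries lay within 1.11 times of each other. The log2 fold change was -1.88 (SE 1.08), and it was -0.44 without CD37 fl/fl replicate 2 and -3.32 without CD37 fl/fl replicate 1. The library with the most Gata2 was the library with the fewest globin reads. Of the reads of Gata1 and Gata2 together, Gata2 held 86.6%, 100%, 89.1% and 74.4% in the 4 libraries, so that GATA2 transcripts outnumbered GATA1 transcripts in each, also per exon length.

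Between the groups, 6 of the 8 genes were higher without overlap in CD37 -/- LSCs (the 4 globins, Klf1 and Epor), 1 was lower (Gata2) and 1 overlapped (Gata1). Over all 16973 genes tested, 37.3% were higher without overlap and 17.6% lower without overlap. At an unadjusted p under 0.05 in limma, 3 of the 8 genes were higher and 0 lower, beside 13.0% and 4.67% of all genes, and no gene in the table passed an adjusted p under 0.05 (0.00%, 0 of 16973, with 2992 at an unadjusted p under 0.05). The contrast served to choose the genes, so nothing is read from these counts. All 8 genes were above 0 in at least 1 library and entered the fit, 6 had a mean of at least 10 reads, and 4, the globins, a mean FPKM of at least 1.

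Compared per exon length, which puts genes with long introns on the same footing, Hbb-bs was first and Hba-a1 second in both CD37 -/- libraries, at 463 and 266 in replicate 1 and 138 and 68.6 in replicate 2. Hba-a2 and Hbb-bt changed places between the replicates, at 97.1 and 88.3 in replicate 1 and 7.88 and 21.5 in replicate 2, so their order was not determined. In CD37 fl/fl replicate 1 the first places were held by Hba-a1 (43.1) and Hbb-bs (37.5). In CD37 fl/fl replicate 2 the highest of the 8 genes was Gata2 (6.69), followed by Hbb-bs (3.38) and Hba-a1 (2.99). Klf1, Epor and Gata1 were below 1 in every library on this scale. Between CD37 fl/fl replicates Hba-a1 and Hbb-bs each moved over 10 times, more than the distance between them, so their order there was not determined either.

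Added up, the 4 globins accounted for 1069 and 104 reads of the CD37 fl/fl group and 12387 and 4114 reads of the CD37 -/- group. As a share of reads this was 0.00697% (95% Clopper-Pearson interval 0.00656 to 0.00741) and 0.000600% (0.000490 to 0.000727) in CD37 fl/fl, and 0.0698% (0.0686 to 0.0711) and 0.0182% (0.0176 to 0.0187) in CD37 -/- replicates 1 and 2. These intervals cover counting error only. The lowest CD37 -/- share was 2.61 times the highest CD37 fl/fl share, while the 2 CD37 fl/fl libraries differed 11.6 times from each other and the 2 CD37 -/- libraries 3.84 times. The spread among CD37 fl/fl replicates was thus as large as the ratio of the group means, which was also 11.6, with group means of 0.00379% ± 0.00451 and 0.0440% ± 0.0365 (SD, n = 2).

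The makeup of the globin reads varied too. Alpha reads made up 54.3% (51.3 to 57.4) and 44.2% (34.5 to 54.3) of the globin reads in CD37 fl/fl and 40.2% (39.3 to 41.1) and 33.5% (32.1 to 35.0) in CD37 -/- replicates 1 and 2. Alpha reads were thus a smaller part in both CD37 -/- libraries, although the interval of CD37 fl/fl replicate 2, with 46 alpha reads, reached below the value of CD37 -/- replicate 1. Within the alpha reads, Hba-a1 held 92.3%, 91.3% and 91.4% in 3 libraries and 76.9% (75.7 to 78.1) in CD37 -/- replicate 1. That library alone had 3.34 Hba-a1 reads for each Hba-a2 read, against 10.5 to 11.9 in the other libraries. Within the beta reads, Hbb-bs held 90.4%, 77.6%, 85.1% and 87.5%. How the counting treated reads that match both copies of a pair is not given in the sources used here.

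**Figure D2:**
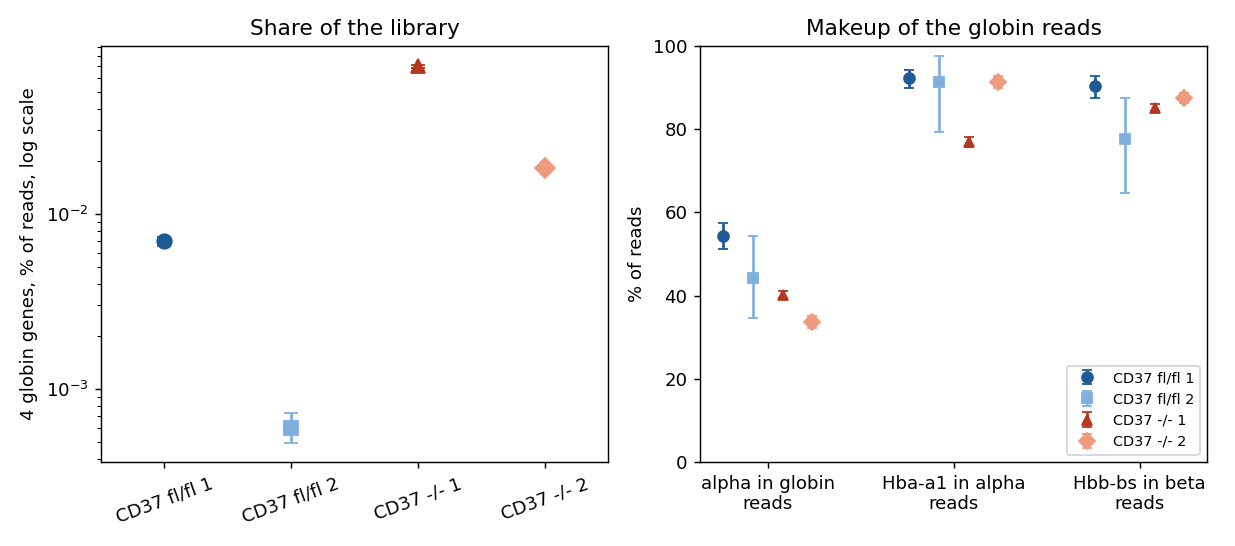
Left, reads of the 4 globin genes as a percentage of all recovered reads (log scale) and, right, the percentage of alpha reads among globin reads, of Hba-a1 among alpha reads and of Hbb-bs among beta reads, 1 point per library with 95% Clopper-Pearson intervals. The globin share runs from 0.000600% to 0.0698%, and Hba-a1 is at 76.9% of alpha reads in CD37 -/- replicate 1 against 91.3% to 92.3% elsewhere.

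Over the 4 libraries, the log2 values of the other globins had a Pearson r of 0.97 to 0.99 with Hbb-bs, and those of Klf1, Epor, Gata1 and Gata2 an r of 0.84, 0.71, 0.54 and -0.92. These are descriptions over 4 points that share library and depth. The genes most like the summed globins were Rnf165, Rasal3, Scai, Zrsr2 and Matk, each with an r of 1.00 over the 4 libraries among the 9603 genes whose mean was 100 reads or more. Of those 9603 genes, 177 (1.84%) had an r of at least 0.95. Rnf165 had 148, 6, 443 and 336 reads, and Matk, a kinase of blood cells, had an FPKM of 7.07, 2.56, 15.9 and 9.71. Both were lowest in CD37 fl/fl replicate 2 and highest in CD37 -/- replicate 1, as the globins were, a likeness that the search selected. For Gata2, a search added after the values were seen gave Pdlim1, Gm8228, Slc4a5 and Tle1 among its first 5 genes. Of the 9603 genes, 224 (2.33%) had an r of at least 0.95 with Gata2. Pdlim1, a gene of the actin cytoskeleton, had 115, 586, 96 and 135 reads. The search picked genes by their likeness to Gata2, so nothing is read from the high value in CD37 fl/fl replicate 2.

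Genes next to the members were looked at to see whether whole loci moved. Within 100000 bases of the alpha genes, 4 other genes were in the table, with log2 fold changes of -0.49 to 0.22 and 0 at an unadjusted p under 0.05 in limma. Among them was Nprl3, whose introns hold the alpha globin enhancers, with 254, 499, 485 and 569 reads and a log2 fold change of 0.22 (SE 0.35). No other gene of the table lay that close to the beta pair. Of 15 neighbours of Klf1, 4 were at an unadjusted p under 0.05 in limma, beside 17.6% of all genes. For Gata1 it was 1 of 8, for Epor 2 of 9 and for Gata2 0 of 2. The neighbours of Gata2 were Rpn1, with an FPKM of 27.9, 46.4, 23.2 and 23.5, and Eefsec, with 0.264, 0.375, 0.224 and 0.209. Both were highest in CD37 fl/fl replicate 2, where Gata2 was also highest, which was picked out after the values were seen. Some neighbours of other members, such as Calr near Klf1 and Prkcsh near Epor, were highest in that library too, and others were not.

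The other erythroid genes were listed under 109 symbols, in 7 lists by role and 1 list of further globins, of which 93 were in the table and tested. At an unadjusted p under 0.05 in limma there were 22 (23.7%, beside 17.6% of all genes), 15 higher and 7 lower in CD37 -/- LSCs. None passed the adjusted p, whose smallest value over all genes was 0.234 (limma with Benjamini-Hochberg adjustment). The split moved with the scaling, to 6 higher and 9 lower after quantile normalization, 8 and 13 after division by the upper quartile, and 24 and 1 after each library was rescaled to the same sum (TPM). Over all genes the share of higher calls moved likewise, from 73.5% to 46.8%, 44.9% and 91.0%, and the median log2 fold change moved from 0.09 to -0.02, -0.00 and 0.33. None of the 22 genes changed its sign under these 3 scalings, with exon length or with any library left out. They were picked by their difference in these same libraries, which largely sets that outcome in advance, so nothing is read from it. The differences named from here on stand against that median of 0.09. The list counts as reported stand against 13.0% of all genes higher and 4.67% lower at an unadjusted p under 0.05 in limma.

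The 9 symbols listed for embryonic and minor globins and a globin chaperone, Ahsp among them, had no row in the table and were not analysed here. Of 20 red cell membrane and skeleton genes, 5 were higher at an unadjusted p under 0.05 and 0 lower, with a median log2 fold change of 0.17. Many of these genes lie below the pseudocount of 0.1, which makes their differences small. With exon length the median was 0.46 with 7 higher, and without CD37 fl/fl replicate 2 or CD37 -/- replicate 1 there were 2 and 3 higher. Slc4a1, the band 3 anion exchanger, had an FPKM of 0.0526 and 0.00332 in CD37 fl/fl LSCs and 0.321 and 0.211 in CD37 -/- LSCs, from 14, 1, 99 and 83 reads, a log2 fold change of 1.53 (SE 0.29). Like the globins it was lowest in CD37 fl/fl replicate 2 and highest in CD37 -/- replicate 1. It had 13.1, 9.62, 7.99 and 20.2 reads for every 1000 globin reads, of which the 9.62 rests on 1 read of Slc4a1. For Klf1 the same ratio was 6.55, 67.3, 1.70 and 8.02, a wider range. Among the other higher genes of this list was Epb42 (log2 fold change 0.34, with 2, 0, 13 and 10 reads). The glucose transporter Slc2a1 (1.89) and the amino acid transporter Slc43a1 (1.20) were further ones. These were named after their values were seen. Ermap, an erythroid membrane gene, had 4, 3, 13 and 1 reads and a log2 fold change of 0.12 (SE 0.21), with overlapping groups.

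Among 12 red cell enzyme and antioxidant genes, 2 were higher and 1 lower, with a median of 0.13. Car2, carbonic anhydrase 2, had an FPKM of 0.0360 and 0.0318 in CD37 fl/fl LSCs and 0.284 and 0.216 in CD37 -/- LSCs, a log2 fold change of 1.38 (SE 0.17), with both replicates close in each group. Hemgn, a nuclear factor of erythroid precursors, had 0, 6, 13 and 20 reads (log2 fold change 0.38, SE 0.10), and Car1, the red cell carbonic anhydrase, had 2, 4, 18 and 4 reads (0.12, SE 0.10). The lower gene was Prdx2, a peroxidase abundant in red cells that lies 64296 bases from Klf1, with an FPKM of 42.0 and 43.3 against 24.0 and 19.1 and a log2 fold change of -0.99 (SE 0.18). It was named after its values were seen.

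Of the 8 heme synthesis genes in the table, 1 was higher and 1 lower, and the median was 0.05. Fech, the enzyme that puts iron into heme, had an FPKM of 0.512 and 0.549 in CD37 fl/fl LSCs and 1.19 and 1.28 in CD37 -/- LSCs, a log2 fold change of 1.09 (SE 0.24). Urod, an earlier enzyme of the pathway named after its values were seen, had a log2 fold change of -0.53. Alas1, the form of the first enzyme found in all cells, had an FPKM of 32.7, 39.5, 31.6 and 47.4 with overlapping groups (0.11, SE 0.27).

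Of the 12 genes of iron uptake and storage, 1 was higher and 3 lower, with a median of 0.18. The higher gene was Slc25a37, the mitochondrial iron importer, with an FPKM of 2.10 and 2.27 against 2.93 and 3.28 (log2 fold change 0.49, SE 0.17). The lower genes, named after their values were seen, were the ferritin genes Fth1 (-1.04), Ftl1 (-1.54) and Ftl1-ps1 (-1.32), which store iron in most cells and of which the last is a copy that can share reads with Ftl1. None of the 12 was lower at that p after TPM rescaling. Tfrc, the transferrin receptor, had an FPKM of 8.31 and 10.5 against 12.0 and 12.6 and a log2 fold change of 0.39 (SE 0.18), which did not pass.

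The 18 transcription factors and partners had a median of 0.01, with 1 higher and 2 lower. Nfe2, a factor of red cell and platelet precursors, had an FPKM of 47.9 and 55.5 in CD37 fl/fl LSCs and 32.9 and 27.3 in CD37 -/- LSCs, a log2 fold change of -0.78 (SE 0.19). Gfi1b, a repressor needed for red cell and platelet formation, had 26, 33, 12 and 24 reads and a log2 fold change of -0.53 (SE 0.16). Tcf3, a partner of TAL1 named after its values were seen, had a log2 fold change of 0.85. Tal1 and Lmo2, which form a complex with GATA1, had 6 to 14 and 43 to 81 reads and log2 fold changes of 0.17 (SE 0.08) and 0.06 (SE 0.19). The GATA1 cofactor gene Zfpm1 had a log2 fold change of -0.21 (SE 0.19) and Myb of 0.24 (SE 0.27), so neither passed.

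Of the 14 genes listed for erythropoietin receptor signaling, 1 passed at an unadjusted p under 0.05 in limma. It was Sh2b3, an adaptor that restrains JAK2, with a log2 fold change of 1.10 (named after its values were seen). The median was 0.62, beside 0.09 over all genes. Jak2, the kinase bound to the receptor, was at 0.87 (SE 0.37), Stat5a at 0.81 (SE 0.30), Stat5b at 0.55 (SE 0.34), Kit at 0.50 (SE 0.36) and Bcl2l1, a survival gene, at -0.11 (SE 0.28). These genes also act in myeloid cells. The median was 0.41 with 0 higher after quantile normalization, 0.38 with 0 higher after division by the upper quartile, 0.96 with 3 higher after TPM rescaling and 0.70 with 4 higher with exon length. It was 0.38 without CD37 -/- replicate 2 and 0.40 without CD37 fl/fl replicate 2, with 0 higher in both.

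The 9 genes of late maturation and clearance had a median of 0.71, with 4 higher and 0 lower. Bnip3l, which clears mitochondria from maturing red cells, had an FPKM of 2.35 and 1.48 against 3.46 and 3.23 (log2 fold change 0.81, SE 0.28). The others, named after their values were seen, were Ube2o (0.89), Trim10 (0.71, with 2, 0, 14 and 11 reads) and Fhdc1 (1.44). The median lay between 0.51 (quantile normalization, 2 higher) and 0.95 (TPM rescaling, 5 higher) over the scalings, exon length and libraries left out. There were 0 higher without CD37 fl/fl replicate 2, 1 without CD37 -/- replicate 2 and 2 without either of the others.

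**Figure D3:**
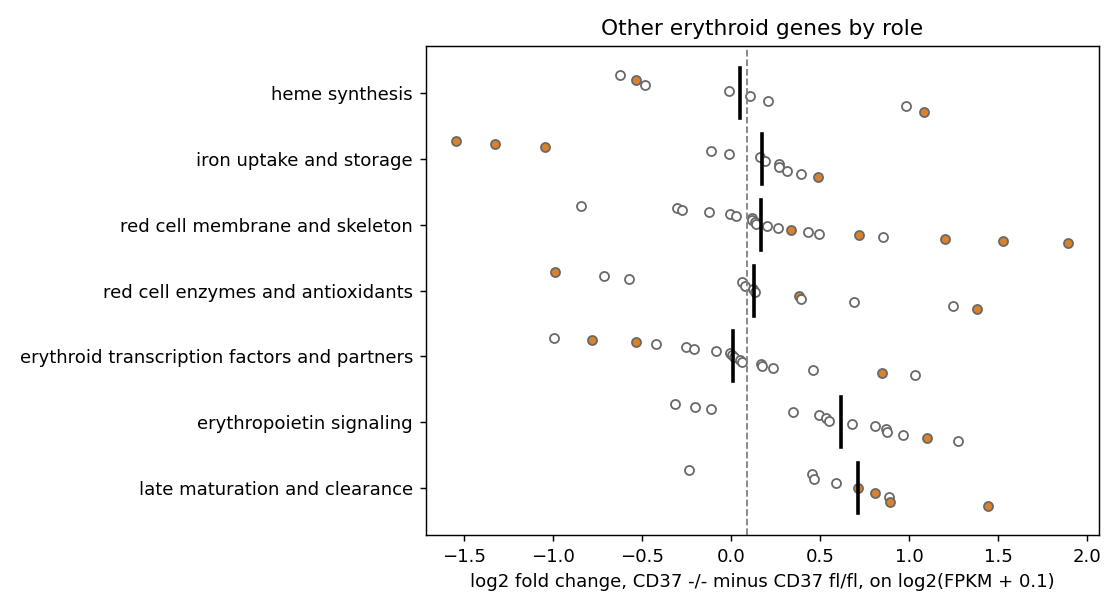
Log2 fold change of each of the 93 other erythroid genes, CD37 -/- minus CD37 fl/fl, by list. Filled points are at an unadjusted p under 0.05 in limma (15 higher, 7 lower), black bars are list medians (from 0.01 to 0.71), and the dashed line is the median of all genes, 0.09.

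Genes of myeloid identity, among them factors that oppose GATA1, were measured in the same libraries. Spi1, which encodes PU.1, had an FPKM of 16.2 and 11.3 against 14.9 and 16.2 (log2 fold change 0.19, SE 0.23), and Cebpa had 28.1 and 33.8 against 40.7 and 40.3 (0.39, SE 0.17), and neither passed. Mpo, the granule enzyme of myeloid precursors, was lower, with an FPKM of 80.3 and 51.6 against 34.4 and 20.8 (-1.26, SE 0.38). Of the 11 genes in this list, 2 others were at an unadjusted p under 0.05 and higher, Gfi1 (1.28) and Ptprc (1.40), both named after their values were seen.

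Markers of other marrow cells also varied between libraries, and their part in the globin result was not tested. The 2 eosinophil markers in the table (of 3 listed) summed to 86.9 and 12.1 RPM (reads scaled to a library of 1000000) in CD37 fl/fl LSCs and 120 and 139 RPM in CD37 -/- LSCs, and were lowest in CD37 fl/fl replicate 2 like the globins, whose sums were 69.7, 6.00, 698 and 182. The 7 mast cell and basophil markers (of 9 listed, without Gata2) summed to 37.5, 49.9, 72.4 and 52.2, with 1 marker at 0 in each CD37 fl/fl library. Mcpt8 held much of that sum, with 232, 744, 664 and 404 reads. The basophil marker Prss34, named after its values were seen, had 15, 3, 178 and 81 reads and a log2 fold change of 3.28 (SE 0.85), and was lowest and highest in the same libraries as the globins. The 8 megakaryocyte markers (of 11) summed to 23.6, 11.5, 14.4 and 27.4, a range that overlapped between the groups. The 4 B cell markers (of 5) summed to 44.8 and 52.9 against 30.7 and 24.1, with 2 markers at 0 in CD37 fl/fl replicate 2. The 4 T and NK cell markers (of 6) summed to 2.54 to 6.93, and the 8 leukemic progenitor markers (of 9) to 1648, 1530, 1591 and 1487. Within that sum single genes moved in opposite directions, with Mpo lower and Ptprc and Hoxa10 (1.15, SE 0.20, named after its values were seen) higher at an unadjusted p under 0.05.

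**Figure D4:**
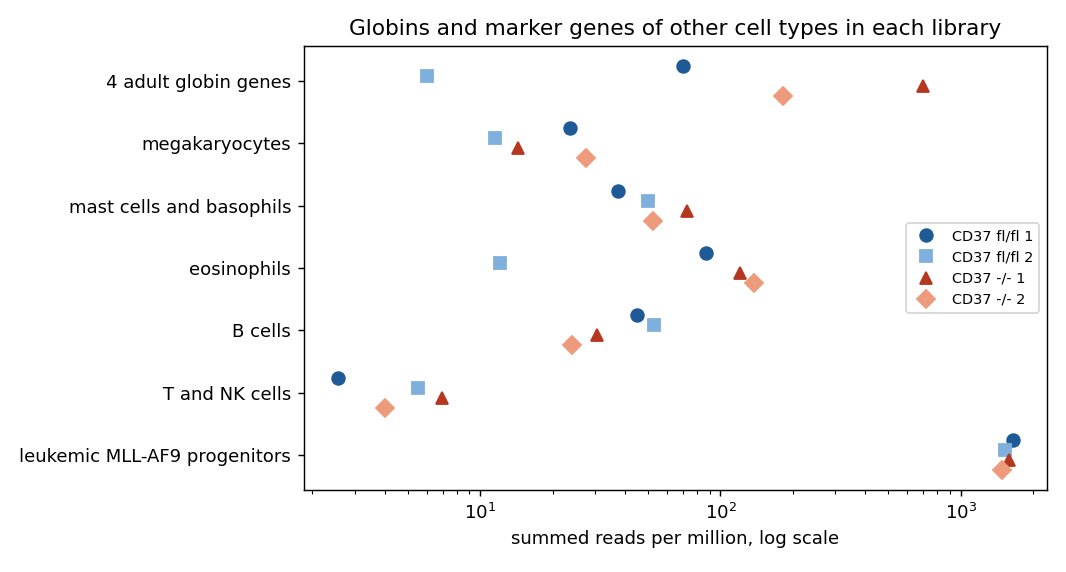
Summed RPM (log scale) of the 4 globin genes and of marker genes of other cell types, 1 point per library. Globins run from 6.00 to 698 and eosinophil markers from 12.1 to 139, both lowest in CD37 fl/fl replicate 2, while the sum of the leukemic progenitor markers, whose members differ in direction, lies between 1487 and 1648.

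Across 16 other settings, the globins, Klf1, Gata2 and Epor kept the sign of their difference wherever they had a value. The groups of these genes did not overlap, so leaving out a library could not change the sign. They were also chosen with this contrast known, so nothing is read from the kept signs. Gata1, whose groups overlapped, changed sign once, to -0.01 without CD37 fl/fl replicate 2. Single libraries moved the globins most. On the log2 scale, Hba-a1 differed by 1.65 and Hbb-bs by 2.75 when CD37 fl/fl replicate 2 was left out, and by 5.45 and 6.14 when CD37 fl/fl replicate 1 was left out. Hba-a2 differed by 2.46 and Hbb-bt by 3.17 when CD37 -/- replicate 1 was left out, and by 6.06 and 5.19 when CD37 -/- replicate 2 was left out. Klf1 stayed between 0.99 and 1.23 with any library left out. A pseudocount of 1, which exceeds the values of Klf1 several times, reduced its log2 fold change to 0.30.

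**Figure D5:**
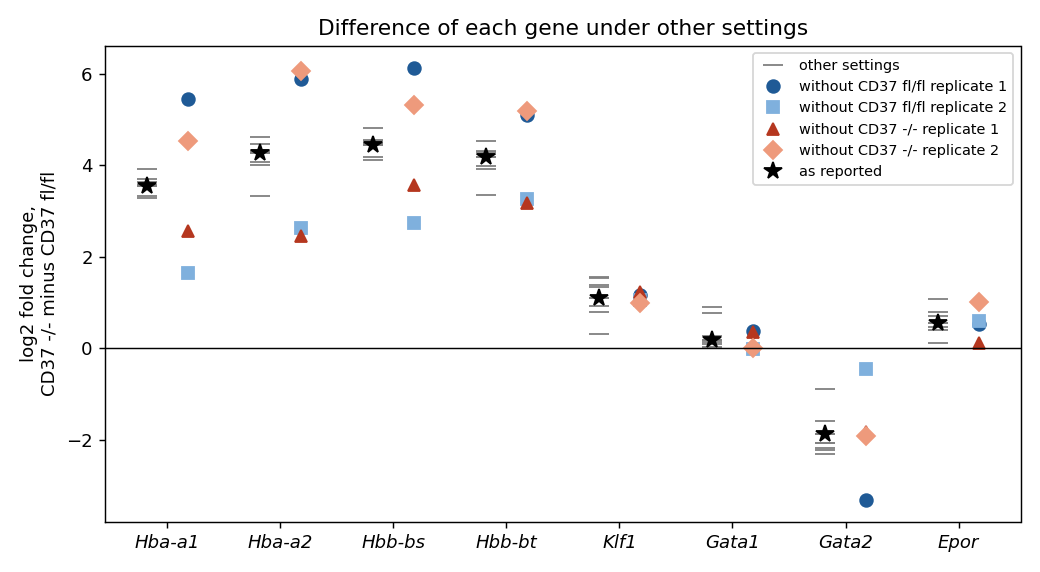
Log2 fold change of each gene, CD37 -/- minus CD37 fl/fl, as reported (star), under other settings (grey lines) and with 1 library left out (coloured points). Globins stay above 0 throughout, Gata2 stays below 0, and Gata1 lies between -0.01 and 0.89. Where groups do not overlap, as for the globins and Gata2, a library left out cannot change the sign.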

How the data were processed

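There were 4 strand-specific poly(A) libraries, 2 per genotype. The authors deposited FPKM values per gene, without a log and without pooling. The submitters' processing notes name fastp 0.20.1, STAR 2.7.7a, featureCounts 2.0.0, edgeR and mm39, without a role or an annotation, and no column of other samples was present (0). Gene identifiers were matched to GENCODE M21 on GRCm38 (17045 of 17104, 99.7%), since FPKM times its gene span gave whole reads (tolerance 0.05) for 99.0% of values. Values were transformed as log2(FPKM + 0.1), and the 16973 genes above 0 in at least 1 library were fitted in limma (version 3.58.1, under R 4.3.3 with statmod 1.5.0 installed) by lmFit and a trended eBayes, without a replicate block. Adjusted p-values are those of Benjamini and Hochberg. Recovered reads served for depth, shares and limma-voom. Other steps ran in Python 3.11.15 (numpy 2.4.6, pandas 2.3.3, matplotlib 3.10.9, scipy 1.17.1). The code was tested on simulated data.

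The members and lists were chosen with earlier results of these data known. All members present were described. From the lists, a set of defining genes and any gene with an adjusted p under 0.05 were to be named, and other genes are marked where they appear. Some genes that meet this rule are not reported here. The genes most alike were the 5 with the highest Pearson r with the log2 summed globin FPKM. Alternatives were other pseudocounts (1 and 0.01), a mean FPKM of at least 1, a mean of at least 10 reads, quantile normalization, TPM rescaling, the upper quartile, exon length, limma-voom, an untrended or a robust eBayes, a replicate block and each library left out. Protein sequences were not used here.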

Additional observations from a re-analysis of the deposited data

How the results depend on the processing

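No gene passed an adjusted p under 0.05 in limma under any of the 16 alternatives, limma-voom included, which had 3309 genes at an unadjusted p under 0.05. That unadjusted count, 2992 as reported, was 1621 when testing was limited to the 6761 genes that reach a mean FPKM of 1, and between 1611 (without CD37 -/- replicate 2) and 2540 with a library left out. The count of other erythroid genes, 22 as reported, was 9 of the 40 that reach a mean FPKM of at least 1 (3 higher, 6 lower) and between 13 and 18 with a library left out, with 13 without CD37 fl/fl replicate 2 and 14 without either CD37 -/- replicate. The ratio of mean globin shares was 11.6 for the 4 adult genes and also with the pseudogene Hba-ps4 and the neuronal globin gene Ngb included, 72.0 without CD37 fl/fl replicate 1, 6.31 without its replicate 2, 4.80 without CD37 -/- replicate 1 and 18.4 without its replicate 2. Same-numbered libraries did not deviate together (r = -0.06 over 16973 genes), so the numbers are not read as pairs. With the replicate number as a block, 0 genes passed the adjusted p, 2684 genes an unadjusted p under 0.05, and 19 other erythroid genes (16 higher, 3 lower). Where 1 library remained in a group, its spread was taken from the other group. Klf1, Gata1 and Epor rest on 33 reads or fewer per library, which limits their precision, and 2 libraries a group limit that of every difference.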
